A study of Homo sapiens with 8 samples.

Results

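The genes described here are 8 components of the R-spondin arm of Wnt signalling: the receptors LGR4, LGR5 and LGR6, the membrane ubiquitin ligases RNF43 and ZNRF3, and the secreted R-spondins RSPO1, RSPO3 and RSPO4. They were chosen by name as parts of this pathway, with earlier results of these data known, and all 8 were found by Ensembl identifier among the 58206 genes of the count table. The table came from messenger RNA sequencing of Alexander1 cells (ATCC CRL-8024), a human hepatocellular carcinoma line whose own Axin1 lacks the stretch that binds the kinase GSK3. It holds 4 libraries of the parental cells, with the genotype label "wt (Axin1 -)", and 4 of a stable derivative labelled "Axin1 +", which received full-length Axin1 from Addgene plasmid 24928. The derivative was made by VSV-G retroviral transfer followed by hygromycin B selection of clones, and the number of clones behind the 4 libraries is not given in the sources used here. The treatment text stands on all 8 labels, so it does not say whether the parental cells were also exposed to virus or hygromycin B. All cells were grown in the same serum-containing medium without an added Wnt or R-spondin. The comparison asks how transcript levels differ between the line with constitutive Wnt signalling and its Axin1 derivative.

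RNF43 and ZNRF3 are transmembrane E3 ligases that ubiquitinate Frizzled receptors, and the LRP co-receptors with them, and so remove them from the cell surface. R-spondins bind an LGR receptor and one of these ligases at the same time, which takes the ligase off the surface and leaves more Frizzled available for Wnt. LGR5, RNF43 and ZNRF3 are themselves Wnt target genes in many epithelia, and in the liver the LGR4 and LGR5 axis is known for maintaining the Wnt-dependent gene programme of hepatocytes around the central vein.

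Total counts were 11232951 to 15263761 in the parental libraries and 12372436 to 26400782 in the derivative, so that 3 counts in a library corresponded to 0.108 to 0.267 CPM (counts scaled to a common library total). In the fit over the 14289 genes that passed the filter on low counts, 2738 (19.2%) were called at an adjusted p under 0.05 (edgeR quasi-likelihood test, Benjamini-Hochberg adjustment over all tested genes), 1485 (10.4%) higher and 1253 (8.77%) lower in the derivative, and leaving out 1 library gave between 1394 (restored-labelled replicate 4) and 3523 (parental replicate 1). Nothing in the labels says that the libraries of a group came from separate cultures, so the p-values measure only the spread between these libraries. Parental replicate 1 stood apart from its group on the second principal component and restored-labelled replicate 1 on the first, and without both of them 4623 genes were called. AXIN1 itself measured 52.4 ± 3.49 CPM (SD, n = 4) in the parental libraries and 45.4 ± 5.13 in the derivative (log2 fold change -0.21, SE 0.12, edgeR adjusted p = 0.267), and gene-level counts do not separate the deleted from the full-length transcript. AXIN1 was therefore not higher under the label that says Axin1 was added, and the groups are called parental and restored-labelled, with every direction resting on the labels. The 11 hepatocyte and hepatoma markers were all tested and summed to 23311 to 26300.3 CPM (parental) and 20997 to 26097 CPM (restored-labelled), with SERPINA1 the most abundant of them by mean CPM. Among them FGB (log2 2.05), FGA (1.19) and TTR (1.76) rose and SERPINA1 (-0.64) fell (edgeR adjusted p = 6.39e-05, 0.00115, 0.0259 and 0.0164); the TTR call was lost without parental replicate 3 or restored-labelled replicate 2, 3 or 4 (0.0549 to 0.0662) and the SERPINA1 call without parental replicate 2 or restored-labelled replicate 3 or 4 (0.0554 to 0.065). The other 7 hepatocyte and hepatoma markers did not pass, and the median log2 fold change of the list was -0.18. AFP lay nearest the threshold (log2 -1.14, edgeR adjusted p = 0.0538), and ALB, the albumin gene, was at log2 1.51 (edgeR adjusted p = 0.211). ALB was at 13.8 CPM in restored-labelled replicate 1 and at 445 to 681 CPM in the other 3 libraries of that group. TTR was at 1.42 to 5.35 CPM in the parental libraries. Of 7 endothelial markers, PECAM1 alone passed the filter and rose from 5.18 ± 0.951 to 48.2 ± 10.3 CPM (edgeR adjusted p = 8.45e-06), while TEK and CLEC4G were at 0 in all 8 libraries, KDR had at most 2 counts and CDH5 at most 4; the summed endothelial level was 4.58 to 6.77 CPM in the parental and 34.1 to 58.5 CPM in the restored-labelled libraries. Fibroblast markers summed to 2.71 to 3.22 and 1.23 to 4.63 CPM, with PDGFRA, COL1A2 and DCN at 1 count or fewer and LUM at 0 in the parental and at most 6 counts in the restored-labelled libraries. PDGFRB of that list fell from 1.69 ± 0.639 to 0.221 ± 0.162 CPM (log2 -2.87, SE 0.53, edgeR adjusted p = 0.00454). COL1A1, the other tested gene of that list, went the other way without passing, at 1.11 ± 0.645 and 1.87 ± 1.38 CPM (log2 0.81, SE 0.53, edgeR adjusted p = 0.308). Leukocyte markers, almost all LYZ, summed to 422 to 949 and 672 to 919.6 CPM, with CD3E at 0 and PTPRC at 2 counts or fewer. The part of these markers in the results was not tested. In bulk RNA, fewer cells of a type and less RNA per cell cannot be told apart.

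LGR5, the receptor that marks Wnt-dependent stem cells and a Wnt target, had 54, 206, 174 and 258 counts in parental replicates 1 to 4 and 18, 0, 2 and 6 counts in restored-labelled replicates 1 to 4. On the CPM scale these were 4.81, 13.9, 15.5 and 18.5 in the parental cells and 0.646, 0, 0.0986 and 0.234 in the restored-labelled cells. Every parental library lay above every restored-labelled library, parental replicate 1 was the lowest of its group, and restored-labelled replicate 1 was the highest of its own. The mean fell from 13.2 ± 5.89 to 0.245 ± 0.284 CPM. As fitted by edgeR, which is not the plain ratio of these means, LGR5 was 45.1-fold lower with a 95% interval of 17.4 to 117 (log2 fold change -5.49, SE 0.62, edgeR adjusted p = 0.000294). LGR5 was the only 1 of the 4 tested members to pass the threshold, against 19.2% of all tested genes. Only 5 of the 14289 tested genes had a more negative log2 fold change. The call held in all 19 alternative settings, with log2 fold changes between -5.23 without restored-labelled replicate 3 and -6.80 without both libraries numbered 1, and it was -6.54 without restored-labelled replicate 1. LGR5 lies on chromosome 12 (GRCh38, 71439770 to 71586310, plus strand), and the 40 tested genes nearest to it had a median log2 fold change of 0.06, with 2 higher and 0 lower. Its exons share 208 bases with an antisense gene that had 3 counts in all 8 libraries together.

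**Figure D1:**
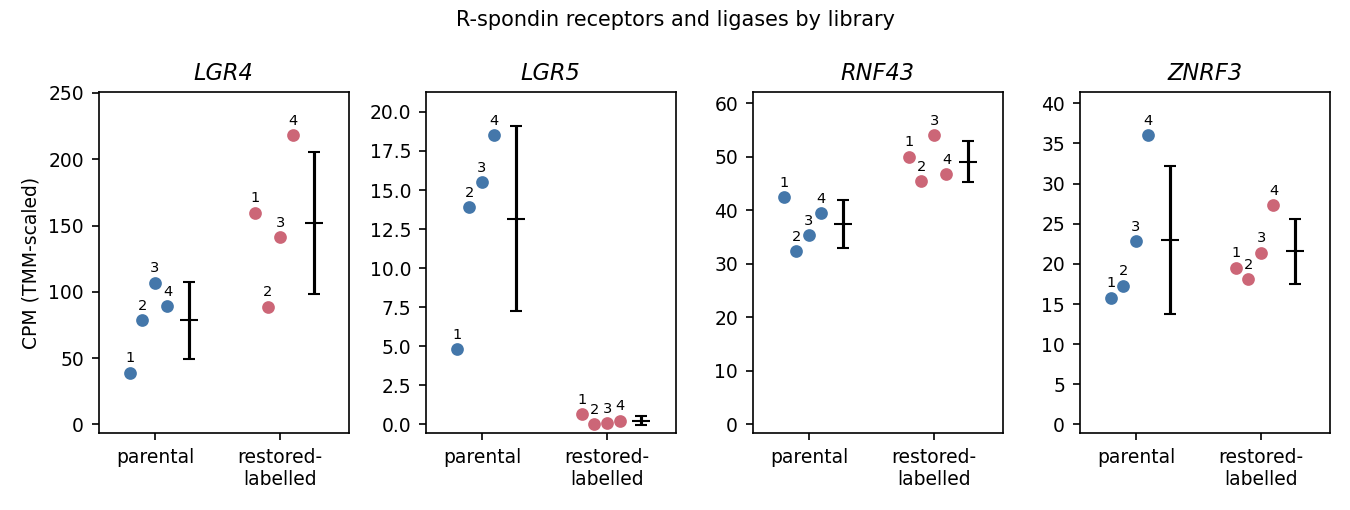
Level of LGR4, LGR5, RNF43 and ZNRF3 in every library (CPM, linear axes from 0), each point numbered by its replicate, with the group mean and SD beside the points. LGR5 and RNF43 do not overlap between groups, RNF43 by a small margin (42.5 against 45.4 CPM), and LGR4 and ZNRF3 overlap.

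LGR4, the broadly expressed receptor of the family, was the most abundant member in both groups, and its difference did not pass the threshold. Parental replicates 1 to 4 measured 39.2, 78.5, 107 and 89 CPM, and restored-labelled replicates 1 to 4 measured 159.7, 88.8, 141 and 218 CPM. The groups overlapped, because restored-labelled replicate 2 lay below parental replicates 3 and 4, while the other restored-labelled libraries lay above all parental ones. The means were 78.4 ± 28.6 and 152 ± 53.1 CPM, a 1.94-fold difference with a 95% interval of 1.21 to 3.1 (log2 0.95, SE 0.31, unadjusted p = 0.0102, edgeR adjusted p = 0.0522). The call turned on single choices: the edgeR adjusted p was 0.0284 without restored-labelled replicate 2, 0.0467 without parental replicate 1 (log2 0.73) and likewise 0.0467 without parental replicate 3, and 0.164 without restored-labelled replicate 4 (log2 0.73). LGR4 lies on chromosome 11 (GRCh38, 27365961 to 27472775, minus strand), where the 40 nearest tested genes had a median log2 fold change of 0.24, with 4 higher and 2 lower.

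The promoter of LGR4 is shown because LGR4 is the most abundant receptor of the family here and lies close to the threshold. The sequence is the 250 bases before the RefSeq start in GRCh38.p14 (chr11:27472791-27473040, minus strand, read 5′ to 3′), in lower case because neither letter motif searched, CTTTGA or its longer form CTTTGAT (core letters of TCF/LEF sites, both strands, the longer form containing the shorter), occurs in it.
LGR4: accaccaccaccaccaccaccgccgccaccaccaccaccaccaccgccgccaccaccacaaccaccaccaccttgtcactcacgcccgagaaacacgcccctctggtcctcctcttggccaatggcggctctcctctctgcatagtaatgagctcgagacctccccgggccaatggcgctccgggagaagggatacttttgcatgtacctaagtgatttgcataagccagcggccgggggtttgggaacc
Of 35116 upstream windows of 250 bases, 3937 (11.2%) hold CTTTGA and 794 (2.3%) hold CTTTGAT on either strand. RefSeq windows were matched for 6 of the 8 members (all but LGR5 and ZNRF3), and none of their 9 windows holds either motif, which describes only these letters in these windows.

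LGR6, the remaining R-spondin receptor, had 0 counts in every parental library and 2, 0, 0 and 1 counts in the restored-labelled libraries. All values lay at or under 3 counts, so no fold change was computed and no difference was detectable at this depth. The related leucine-rich repeat hormone receptors were also near absent: FSHR, LHCGR, TSHR and RXFP2 had 0 counts in all 8 libraries and RXFP1 at most 1. Expressed per kilobase of annotated exon, LGR5 made up 12.9, 17.7, 14.9 and 20% of the summed LGR4, LGR5 and LGR6 level in parental replicates 1 to 4. In restored-labelled replicates 1 to 4 it made up 0.485, 0, 0.0845 and 0.13%. The receptor pool of the restored-labelled libraries was thus almost wholly LGR4. The summed level of the receptors was 14.8 ± 5.53 CPM per kb in the parental and 24 ± 8.43 in the restored-labelled libraries.

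**Figure D2:**
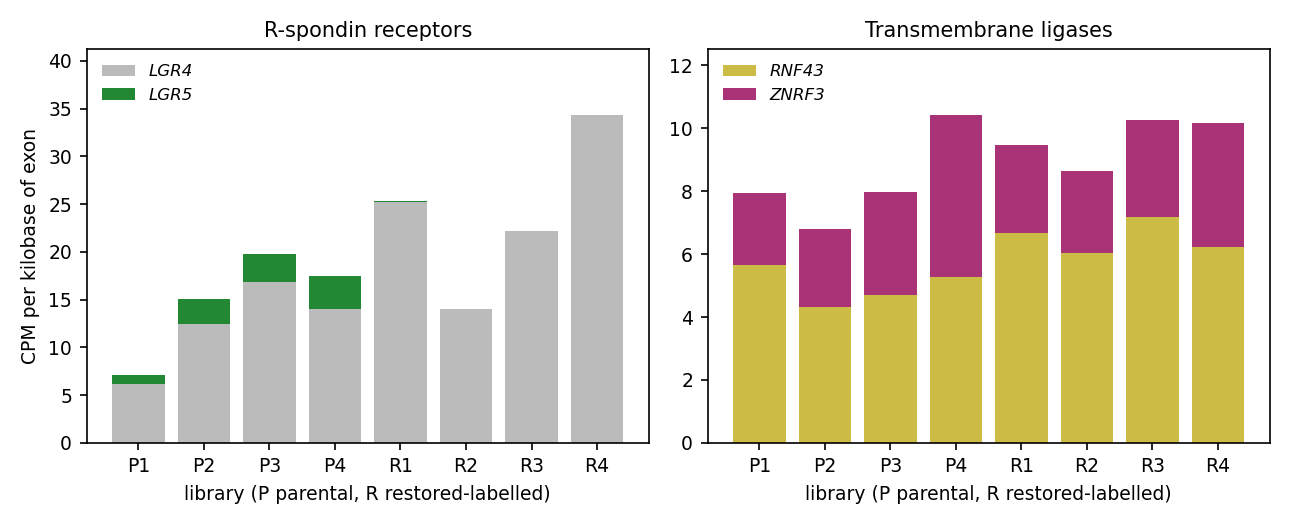
Stacked level of LGR4 and LGR5 (left) and of RNF43 and ZNRF3 (right) in each library, in CPM per kilobase of exon. LGR5 takes 12.9 to 20% of the receptor pool in the parental libraries and at most 0.485% in the restored-labelled ones, while the ZNRF3 share of the ligase pool overlaps between groups.

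The 3 R-spondin ligands examined were at or near 0 in these cells, and RSPO2 was not on the list. RSPO1 had 0 counts in all 8 libraries. RSPO3, which endothelial cells around the central vein supply in the liver, had 1 count in restored-labelled replicate 2 and 0 elsewhere. RSPO4 had 1, 1, 1 and 0 counts in the restored-labelled libraries and 0 in the parental ones. No R-spondin listed here reached more than 3 counts in any library, so no test or fold change was made, and 3 counts stand for 0.108 to 0.267 CPM depending on the library.

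RNF43 separated the groups completely but by a small margin, and did not pass the threshold. Parental replicates 1 to 4 measured 42.5, 32.4, 35.3 and 39.5 CPM, and restored-labelled replicates 1 to 4 measured 50, 45.4, 54 and 46.8 CPM. The highest parental library was replicate 1 and the lowest restored-labelled library replicate 2, which were 42.5 and 45.4 CPM. Non-overlapping groups of this kind were seen in 23.9% of all tested genes, and among the 4 tested members in LGR5 and RNF43. The means were 37.4 ± 4.5 and 49.1 ± 3.79 CPM (log2 fold change 0.39, SE 0.13, 95% interval 0.11 to 0.67, unadjusted p = 0.0109, edgeR adjusted p = 0.0546). It was past the threshold in 4 of 19 alternatives, among them without parental replicate 1 (log2 0.46, edgeR adjusted p = 0.0238), and its adjusted p was 0.166 without parental replicate 2 (log2 0.32).

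RNF43 lies on chromosome 17 (GRCh38, 58352500 to 58417595, minus strand), in a stretch where many genes were higher. Of the 40 nearest tested genes 16 were higher and 1 lower, with a median log2 fold change of 0.50, and RNF43 lay 0.11 below that median. For the 40 genes around LGR4 the median was 0.24 and LGR4 lay 0.71 above it, for LGR5 0.06 and 5.55 below it, and for ZNRF3 0.02 and 0.11 below it. The part of this regional shift in the RNF43 value was not tested. The exons of RNF43 overlap SUPT4H1 on the same strand over 143 bases and TSPOAP1-AS1 on the opposite strand over 1521 bases. Over all libraries SUPT4H1 had 12789 counts and TSPOAP1-AS1 had 64, against 6143 for RNF43, and how reads in the shared bases were assigned is not given in the sources used here.

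**Figure D3:**
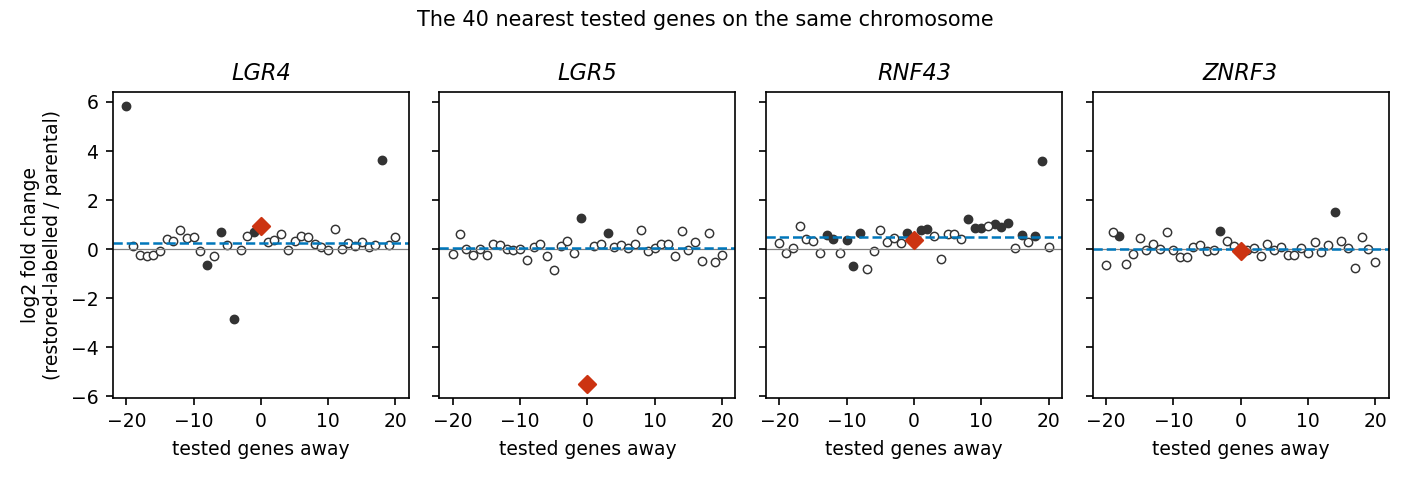
Log2 fold change (restored-labelled over parental) of the 40 tested genes nearest each tested member, in order along the chromosome, filled where called and open where not, with the member as a red diamond and the neighbours' median as a dashed line. The genes around RNF43 have a median of 0.50 and RNF43 lies among them, while LGR5 lies far below its neighbours.

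The upstream sequence of RNF43 is shown because it is the ligase nearest the threshold. The 189 bases before its first RefSeq start that lie outside annotated protein-coding exons (GRCh38.p14, chr17:58417596-58417784, minus strand, 5′ to 3′) hold neither CTTTGA nor CTTTGAT, so no letter is in capitals.
RNF43: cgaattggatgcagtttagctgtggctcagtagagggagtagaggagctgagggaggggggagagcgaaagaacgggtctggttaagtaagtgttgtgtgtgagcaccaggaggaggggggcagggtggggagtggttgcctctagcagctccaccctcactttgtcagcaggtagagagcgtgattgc

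ZNRF3, the paralogous ligase, did not differ detectably between the groups. Parental replicates 1 to 4 measured 15.8, 17.3, 22.8 and 36 CPM, and restored-labelled replicates 1 to 4 measured 19.5, 18.1, 21.4 and 27.3 CPM. The groups overlapped across most of their range, and replicate 4 was the highest library of each group. The means were 23 ± 9.19 and 21.6 ± 4.05 CPM (log2 fold change -0.09, SE 0.25, edgeR adjusted p = 0.831), and the 95% interval of -0.64 to 0.46 allows a difference of moderate size either way. Its sign rested on parental replicate 4, without which it was 0.21 (edgeR adjusted p = 0.499). ZNRF3 lies on chromosome 22 (GRCh38, 28883592 to 29057487, plus strand). ZNRF3 made up 28.5, 36.6, 41 and 49.5% of the summed RNF43 and ZNRF3 level per kilobase in parental replicates 1 to 4, and 29.6, 30, 30 and 38.6% in restored-labelled replicates 1 to 4. These shares overlapped. The summed ligase level was 8.28 ± 1.52 CPM per kb in the parental and 9.65 ± 0.771 in the restored-labelled libraries. Its ratio to the summed level of the listed Frizzled genes was 0.413 ± 0.0656 and 0.442 ± 0.0474, within the spread of the libraries. That sum holds FZD1, FZD2, FZD4, FZD5, FZD7, FZD8, FZD9 and FZD10, but not FZD3 or FZD6, which were not on the list.

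Ordered by level per kilobase of exon, LGR4 came first in both groups, at 12.4 ± 4.52 CPM per kb in the parental and 23.9 ± 8.38 in the restored-labelled libraries, above 74.2% and 85.8% of tested genes. RNF43 followed at 4.99 ± 0.6 and 6.54 ± 0.505 CPM per kb, and ZNRF3 at 3.3 ± 1.32 and 3.1 ± 0.581. LGR5 was at 2.51 ± 1.12 CPM per kb in the parental libraries, above 37.6% of tested genes. Across the parental libraries RNF43 and ZNRF3 overlapped in range, as did ZNRF3 and LGR5. Within each parental library RNF43 lay above ZNRF3, by little in replicate 4 (5.26 and 5.17 CPM per kb). ZNRF3 lay above LGR5 except in parental replicate 2 (2.49 and 2.66 CPM per kb), so that order varied between libraries. LGR5 was at 0.0466 ± 0.0541 CPM per kb in the restored-labelled libraries, above 0.21% of tested genes, and the 4 levels did not overlap there.

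The Frizzled and LRP receptors are the targets of RNF43 and ZNRF3. Of 14 Wnt receptor genes 11 were tested, with 2 higher (FZD2 and FZD7) and 3 lower, against 10.4% higher and 8.77% lower over all tested genes. Their median log2 fold change was -0.31, against a median of 0.003 over all tested genes. FZD2, a Frizzled, rose from 4.62 ± 1.65 to 14.3 ± 2.63 CPM (log2 1.64, SE 0.25, edgeR adjusted p = 0.00164). LRP5, a Wnt co-receptor, fell from 172 ± 27 to 111 ± 10.8 CPM (log2 -0.64, edgeR adjusted p = 0.0104). ROR1, a receptor tyrosine kinase that binds Wnt5a, fell from 8.24 ± 0.801 to 4.35 ± 1.09 CPM (log2 -0.91, edgeR adjusted p = 0.0159), and FZD4 from 22.5 ± 3.16 to 14.5 ± 2.04 CPM (log2 -0.63, edgeR adjusted p = 0.0209). FZD5, by mean the most abundant per kilobase of the listed Frizzled genes, measured 73.8 CPM in the parental and 55.4 in the restored-labelled libraries. It did not pass (log2 -0.41, edgeR adjusted p = 0.162). LRP6 did not pass either (log2 -0.31, edgeR adjusted p = 0.111). The FZD4 call was lost without any 1 of parental replicates 2 or 3 or restored-labelled replicates 2, 3 or 4 (edgeR adjusted p 0.0537 to 0.0677), and the ROR1 call without restored-labelled replicate 3 (0.0555) or 4 (0.0508). The number called was 3 without parental replicate 2 or 3, 2 without restored-labelled replicate 3 or 4, and 9 without both libraries numbered 1. FZD4 exons share 1399 bases with PRSS23 on the opposite strand, and the strand setting of the counting is not given in the sources used here.

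**Figure D4:**
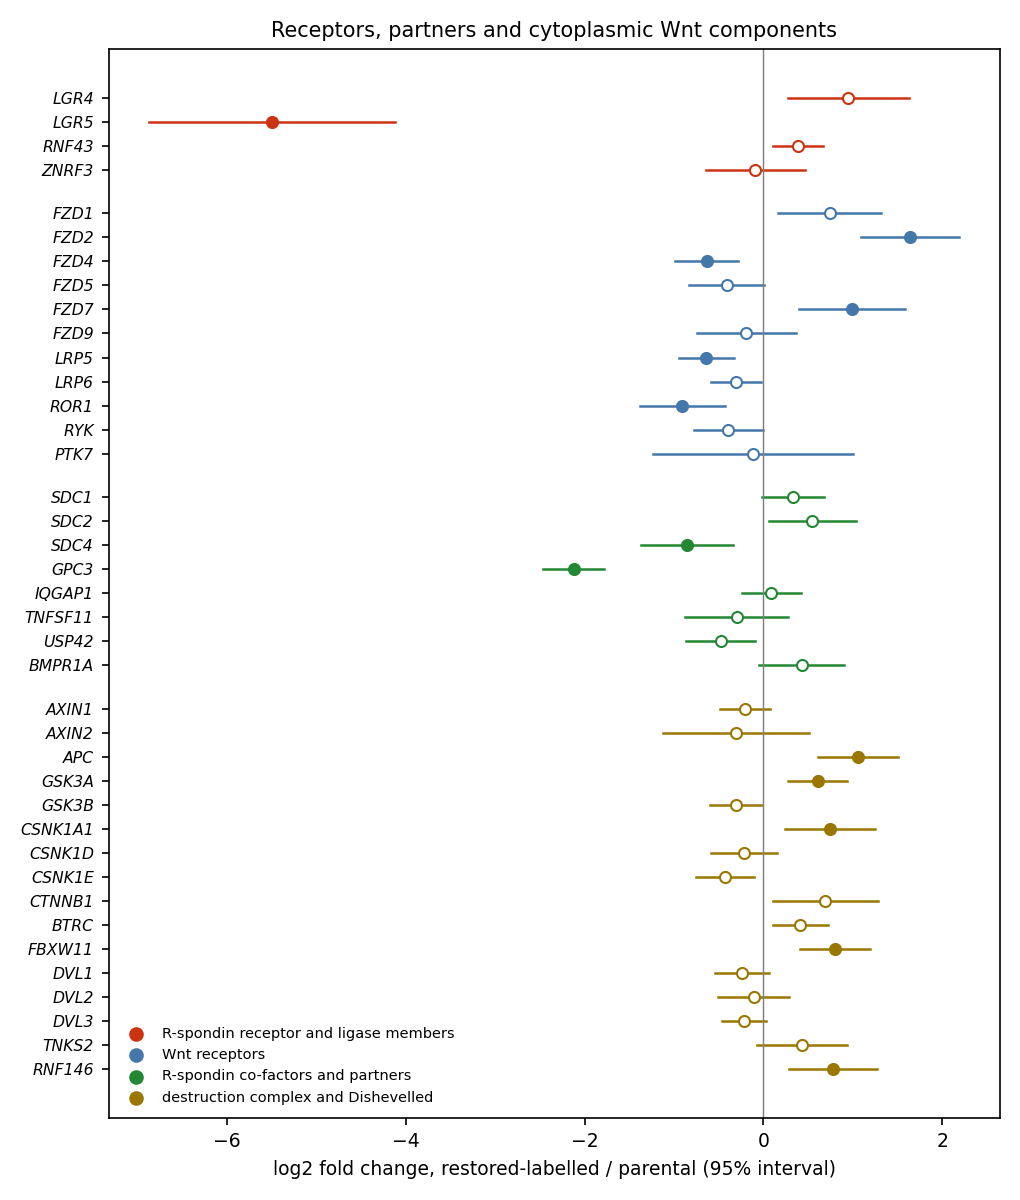
Log2 fold change (restored-labelled over parental) with its 95% interval for the tested members and for the tested Wnt receptor, co-factor and destruction complex genes, filled where the adjusted p was under 0.05. LGR5 lies far outside the range of the others at -5.49, and GPC3 is the lowest of the remaining genes at -2.12.

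Syndecans and glypicans are cell-surface proteoglycans that take part in R-spondin and Wnt signalling. Of 11 co-factor and partner genes 8 were tested, with 0 higher and 2 lower (10.4% and 8.77% over all tested genes). Their median log2 fold change was -0.10. GPC3, a glypican produced by fetal liver and many hepatocellular carcinomas, fell from 513 ± 69.1 to 118 ± 17.4 CPM (log2 -2.12, SE 0.15, edgeR adjusted p = 1.53e-05), and SDC4, a syndecan, from 428 ± 83.8 to 237 ± 83.3 CPM (log2 -0.85, SE 0.23, edgeR adjusted p = 0.0279). The GPC3 call held in all 19 alternatives. The SDC4 call was lost without any 1 of parental replicates 2 or 4 or restored-labelled replicates 2, 3 or 4 (edgeR adjusted p 0.0541 to 0.091), which left 1 called gene in the list in each case.

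All 16 genes of the destruction complex and Dishevelled list, the machinery on which the receptors act, were tested. In this list 5 were higher and 0 lower (10.4% and 8.77% over all tested genes), with a median log2 fold change of 0.15. APC, the scaffold of the complex, rose from 10.5 ± 2.29 to 21.8 ± 4.18 CPM (log2 1.06, SE 0.20, edgeR adjusted p = 0.00546). FBXW11, an F-box protein that recognises phosphorylated beta-catenin, rose from 26.2 ± 4.42 to 45.6 ± 8.43 CPM (edgeR adjusted p = 0.0116), and GSK3A, a GSK3 kinase gene, from 81.5 ± 14.8 to 125 ± 16.1 CPM (edgeR adjusted p = 0.0179). RNF146, the ligase that removes PARylated Axin, rose from 7.97 ± 1.53 to 13.6 ± 3.52 CPM (edgeR adjusted p = 0.0331). The remaining called gene, CSNK1A1, had a log2 fold change of 0.75 (edgeR adjusted p = 0.0434), is named after its value was seen, and shares 2886 exonic bases with a gene on the same strand. CTNNB1, the beta-catenin gene, did not pass (log2 0.69, edgeR adjusted p = 0.0927). The number called was 2 without parental replicate 2, 2 without restored-labelled replicate 3 and 3 without restored-labelled replicate 4. The RNF146 call was lost without parental replicate 2 (0.101) or 4 (0.0582) or restored-labelled replicate 3 (0.0919) or 4 (0.112), GSK3A without parental replicate 2 (0.0581) or 3 (0.0525) or restored-labelled replicate 3 (0.0591), and CSNK1A1 without any 1 of parental replicates 1 to 3 or restored-labelled replicates 1, 3 or 4 (edgeR adjusted p 0.0545 to 0.117).

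LGR5, RNF43 and ZNRF3 belong to a list of 16 Wnt feedback targets, of which 10 were tested. Of these 1 was higher and 3 were lower (10.4% and 8.77% over all tested genes), and LGR5 itself is 1 of the 3 lower. The median log2 fold change was -0.20. SP5, a Wnt-induced transcriptional repressor, fell from 1.79 ± 0.469 to 0.164 ± 0.168 CPM (log2 -3.27, SE 0.58, edgeR adjusted p = 0.00372), and LEF1, a TCF/LEF factor, from 31.7 ± 11 to 13.5 ± 4.13 CPM (log2 -1.22, SE 0.28, edgeR adjusted p = 0.0127). FZD7 rose from 3.17 ± 1.13 to 6.27 ± 1.14 CPM (log2 0.99, edgeR adjusted p = 0.0271). AXIN2, the negative-feedback scaffold, measured 3.73 ± 1.55 and 2.99 ± 0.95 CPM and did not pass (log2 -0.31, SE 0.37, edgeR adjusted p = 0.598). The list thus held fallen, risen and uncalled feedback genes side by side, and the negative-feedback ligases RNF43 and ZNRF3 were among the uncalled. LEF1 overlapped between groups only through parental replicate 1, the lowest of its group (19 CPM), and restored-labelled replicate 1, the highest of its own (19.1 CPM). The log2 fold change of LEF1 was -1.61 without both libraries numbered 1. The FZD7 call was lost without any 1 of parental replicates 2 to 4 or restored-labelled replicates 1, 3 or 4 (edgeR adjusted p 0.0523 to 0.0865).

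The promoter of SP5 is shown as a single example of a Wnt target whose transcript fell, chosen with its value known. In the 250 bases before its RefSeq start (GRCh38.p14, chr2:170715087-170715336, plus strand, 5′ to 3′), CTTTGA occurs 3 times counting both strands, and the capitals mark these matches (TCAAAG is the motif read on the other strand). The matches begin 147, 109 and 83 bases before the start, and 1 of them extends to CTTTGAT.
SP5: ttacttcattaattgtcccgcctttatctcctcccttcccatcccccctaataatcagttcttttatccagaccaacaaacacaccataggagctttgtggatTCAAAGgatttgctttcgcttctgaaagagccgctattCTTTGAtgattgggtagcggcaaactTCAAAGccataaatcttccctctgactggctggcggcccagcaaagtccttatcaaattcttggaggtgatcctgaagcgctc
The share of all upstream windows with any CTTTGA is 11.2%, and a match is a description of letters, not a bound site. No other gene outside the members was examined singly, neither fallen ones such as LEF1 nor uncalled or risen ones such as AXIN2 and FZD7. Whether these letters go with a fall was therefore not tested.

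LGR5 is also a marker of perivenous hepatocytes, and of 14 genes on that list 10 were tested. Of these 2 were higher and 3 lower (10.4% and 8.77% over all tested genes), and LGR5 itself is 1 of the 3 lower. The median log2 fold change was -0.07. SLC1A2, a glutamate transporter, rose from 0.388 ± 0.105 to 3.05 ± 0.898 CPM (log2 2.95, SE 0.36, edgeR adjusted p = 0.000446). It had only 5, 5, 3 and 7 counts in parental replicates 1 to 4. TBX3, a transcription factor, fell from 63.5 ± 30.1 to 22.8 ± 8.9 CPM (log2 -1.47, edgeR adjusted p = 0.0252), and CYP2E1, a cytochrome P450, from 2.43 ± 1.95 to 0.626 ± 0.257 CPM (log2 -1.91, edgeR adjusted p = 0.0284). GLUL, the glutamine synthetase gene, measured 179 and 173 CPM and did not pass. OAT, named after its value was seen, was the remaining called gene (log2 0.80, edgeR adjusted p = 0.0426). The CYP2E1 parental mean rested on replicate 1 at 5.34 CPM against 1.22 to 1.72 in the others, its log2 fold change was -0.97 (edgeR adjusted p = 0.0573) without both libraries numbered 1, and its exons share 2064 bases with SYCE1 on the opposite strand. TBX3 lost its call without any 1 of parental replicates 2 to 4 or restored-labelled replicates 2 to 4 (edgeR adjusted p 0.055 to 0.0781), CYP2E1 without any 1 restored-labelled replicate (0.0583 to 0.0656), and OAT without parental replicate 2 or 4 or restored-labelled replicate 1, 3 or 4 (0.0503 to 0.122). The list had 3 called genes without parental replicate 2 or 4 or restored-labelled replicate 1 or 2, and 2 without restored-labelled replicate 3 or 4.

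**Figure D5:**
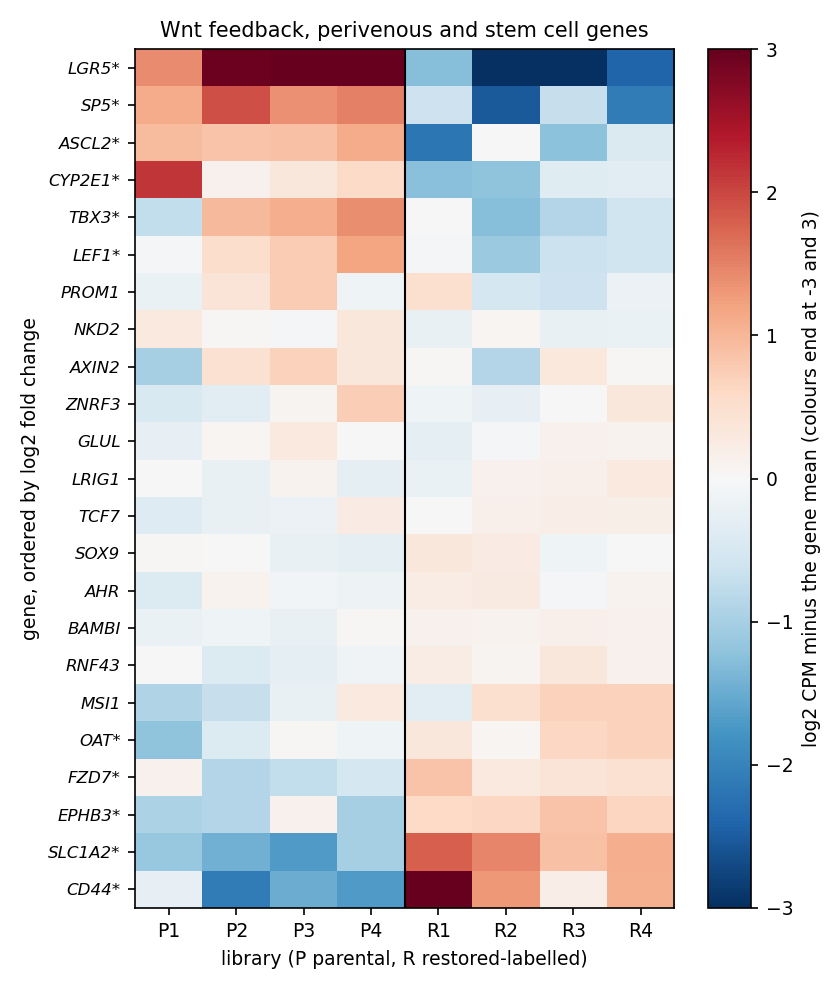
Heat map of the tested Wnt feedback, perivenous and stem cell genes (log2 CPM minus the gene's mean over the 8 libraries, colours ending at -3 and 3), ordered by log2 fold change, with an asterisk on called genes. LGR5 and SP5 are lower in every restored-labelled library than in any parental one, SLC1A2 and CD44 higher, and AXIN2, GLUL and ZNRF3 overlap.

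Among 13 intestinal stem cell genes, the setting in which LGR5 was first used as a marker, 9 were tested. Of these 2 were higher and 2 lower (10.4% and 8.77% over all tested genes), and LGR5 itself is 1 of the 2 lower. The median log2 fold change was 0.24. ASCL2, a stem cell transcription factor and Wnt target, fell from 1.52 ± 0.139 to 0.392 ± 0.295 CPM (log2 -2.06, edgeR adjusted p = 0.0189). CD44, an adhesion receptor, rose from 0.355 ± 0.302 to 3.57 ± 3.3 CPM (log2 3.38, edgeR adjusted p = 0.0102), with restored-labelled replicate 1 the highest at 8.43 CPM. Without that library the log2 fold change of CD44 was 2.48, and without parental replicate 1 it was 4.12. CD44 had only 9, 2, 3 and 3 counts in parental replicates 1 to 4. EPHB3, an ephrin receptor, rose from 0.604 ± 0.31 to 1.65 ± 0.153 CPM (log2 1.46, edgeR adjusted p = 0.0172). The ASCL2 call was lost without restored-labelled replicate 3 (0.0669), and the EPHB3 call without parental replicate 2 (0.0641) or 4 (0.051) or restored-labelled replicate 3 (0.0556), which left 2 called genes in the list without restored-labelled replicate 3.

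Of 21 Wnt ligand and secretion genes 5 were tested, with 1 higher and 0 lower (10.4% and 8.77% over all tested genes). Their median log2 fold change was 0.01. WNT3, a canonical Wnt ligand, rose from 13.6 ± 2.23 to 21.9 ± 1.88 CPM (log2 0.69, SE 0.16, edgeR adjusted p = 0.0128). Its call was lost without parental replicate 2 (edgeR adjusted p = 0.0504), which left 0 called genes in the list, and 2 were called without parental replicate 1 or without restored-labelled replicate 1. WLS, the carrier that brings Wnt proteins to the surface, had at most 2 counts in any library, and PORCN, the acyltransferase that lipidates them, measured 12.1 and 12.2 CPM.

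The genes whose centred log2 CPM lay nearest each tested member across the 8 libraries were picked from 13531 candidates by root mean square difference. For LGR5 they were KCNJ3 (0.59), DTX1 (0.61) and HSD17B2 (0.68), with log2 fold changes of -4.51, -4.32 and -7.17 (edgeR adjusted p = 0.000762, 0.00432 and 7.38e-05), and of -5.93, -6.43 and -9.29 without restored-labelled replicate 1. For LGR4 they were SNX18 (0.12), ITGB1 (0.14) and EDEM3 (0.14), and ITGB1, the integrin beta-1 subunit, rose from 422 to 913 CPM (log2 1.11, edgeR adjusted p = 0.0178), a call lost without restored-labelled replicate 4 (0.061). For RNF43 they were PIP4K2B (0.04), which also lies on chromosome 17, TRIM41 (0.06) and PPFIA3 (0.07), and for ZNRF3 they were CBLN3 (0.11), TDP1 (0.13) and PDPR2P (0.14). The nearest patterns to LGR5 lay farther away than those to the other members, and all 12 likenesses rest on the same 8 libraries, whose group difference is part of each.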

How the data were processed

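The authors deposited 1 table of raw read counts per gene, whole numbers for 8 libraries. Per the submitters' processing notes, bcl2fastq, fastp 0.23.1, STAR 2.7.4 and GRCh38 were used; the counting program, annotation and strand setting are not given in the sources used here. Libraries were made with an mRNA library kit, per the labels' protocols. All 8 columns were matched to samples by their label and 0 columns had no sample. Of 58206 identifiers, 57943 were found in GENCODE 29, which gave coordinates and exon lengths, and 57495 in the table of symbols.

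The filterByExpr function, at 10 counts minimum and 15 in total, left 14289 genes, which held 99.75 to 99.85% of counts. The main test was the edgeR 4.0.16 quasi-likelihood test (R 4.3.3, limma 3.58.1) with TMM factors, no covariate and Benjamini-Hochberg adjustment over all tested genes, at a threshold of 0.05; SE is the log2 fold change divided by the root of F, and intervals are 95%. CPM uses TMM-scaled totals, log2 CPM a prior count of 2, and CPM per kb the union of GENCODE exons. A level of 3 counts per library was taken as the floor, which covers counting error only. Replicate pairs differed by more than sampling noise. Members LGR6, RSPO1, RSPO3 and RSPO4 failed the filter and got counts only.

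The 8 members and all gene lists were chosen with earlier results of these data known. Named genes were the members, AXIN1, AXIN2, the 4 smallest p-values among called genes of each list, and the 3 genes most alike each tested member. Neighbours were the 20 tested genes on each side. Alternatives were other scalings, other filters, DESeq2 1.42.0, limma-voom, a replicate block, a threshold of 0.01 and leaving out each library; a GC and length offset and leaving out both libraries numbered 1 were added after the data were seen. The test was also run on simulated counts with known changes, and its outcome is not reported here. Those counts had far fewer changed genes than were called here and no library set apart. Promoter windows are from RefSeq (GRCh38.p14).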

Additional observations from a re-analysis of the deposited data

Results flagged for a closer look

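In 9 of 84 groups of 4 libraries examined (gene levels and pool shares), the highest or lowest library lay apart from the other 3 by more than 0.829 of the whole range. Chance gives about 1 in 20 such groups. Among the members, RSPO3 stood at 0.0826 CPM in 1 restored-labelled library, which is 1 count, and at 0 in the others, and the ZNRF3 share of the ligase pool was 38.6% in restored-labelled replicate 4 against 29.6 to 30% in the others.

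In the restored-labelled group, AXIN1 was low in replicate 4 at 37.7 CPM, APC was high in replicate 4 at 28.1 CPM, FZD4 was high in replicate 1 at 17.5 CPM, WNT3 was low in replicate 2 at 19.2 CPM, and FGB, a fibrinogen chain, was low in replicate 1 at 2257 CPM. In the parental group, CYP2E1 was high in replicate 1 at 5.34 CPM and EPHB3 was high in replicate 3 at 1.07 CPM.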

How the results depend on the processing

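LGR5 kept its direction and call in all 19 alternatives. LGR4 kept its direction in all 19 and passed the threshold in 8: upper-quartile scaling (log2 0.95), no filter (0.98), DESeq2 Wald test (0.95), the GC and length offset (0.83), both libraries numbered 1 left out (0.71) and 3 of the fits that left out 1 library. RNF43 kept its direction in all 19 and passed in 4: total counts only (0.48), DESeq2 Wald test (0.40), both libraries numbered 1 left out (0.45) and without parental replicate 1 (0.46). Leaving out each library in turn gave log2 fold changes of 0.73 to 1.14 for LGR4, -6.54 to -5.23 for LGR5, 0.32 to 0.46 for RNF43 and -0.23 to 0.21 for ZNRF3. ZNRF3 changed sign only without parental replicate 4 (0.21), and the cause was not tested. LGR6, RSPO1, RSPO3 and RSPO4 failed the filter on low counts, so no test of them is reported. The number of called genes was 964 at a threshold of 0.01, 4623 without both libraries numbered 1, and 1394 to 3523 on leaving out each library; with total counts only the split was 1724 higher and 868 lower (66.5% higher) against 1485 and 1253 (54.2%), with a median shift of 0.09, and with the GC and length offset it was 1524 higher and 1745 lower (46.6% higher). Over the pathway lists 23 different genes were called in the main fit, in which 19.2% of all tested genes were called. The lists had 6 called genes at a threshold of 0.01 and 11 to 24 on leaving out each library. Of 39 named genes that are no member, 14 kept direction and call in every alternative, 22 lost the call in at least 1, 3 gained it and 0 reversed. The genes most alike ZNRF3 (CBLN3, TDP1 and PDPR2P) were left out of these 39. Their log2 fold changes in the main fit were near 0 (0.02, 0.01 and 0.04), and whether their signs held was not examined. Same-numbered libraries did not deviate together (correlations -0.06, 0.01, -0.03 and 0.23), and unlike-numbered ones ranged from -0.43 to 0.45. With so few libraries these values cannot show whether the numbers pair the samples. With the replicate block 2033 genes and 21 list genes were called, and the log2 fold changes were 0.97 (LGR4), -5.44 (LGR5), 0.39 (RNF43) and -0.03 (ZNRF3). With 4 libraries a group and at most 18 counts of LGR5 in a restored-labelled library, depth limits the size of its fold change, and levels at or under 3 counts could not be compared. Depth likewise limits the fold change of SP5, with at most 9 counts in a restored-labelled library. For SLC1A2 and CD44 the limit lies in the parental libraries, with at most 7 and 9 counts.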
